A study of Mus musculus with 50 samples.

Results

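The genes described here were 42 named cell cycle and DNA replication genes, taken by name from a list of known genes, of 21954 genes in the expression tables. All 42 were found in the gene column. They were kept as 20 S phase genes and 22 mitotic genes. RNA was measured by poly(A)-selected sequencing in 50 mouse libraries, 41 from amputated digits and 9 from cultured macrophages. The digits were the third hindlimb digit of male C57Bl/6 mice, 9 to 10 weeks old, cut through the distal terminal phalanx (P3), and the sample is a mixture of cell types around the wound bed. Non-regenerative (NR) digits had 60% to 80% of P3 removed by their labels and were taken at 0, 3, 6, 12 and 24 h and at 3, 14 and 21 d (3 digits each) and at 7 d (5 digits). The study calls digits non-regenerative above a level of 67%, and 11 of the 29 NR digits, 2 of 3 at 0 h among them, are labelled below it. Intermediate (IM) digits, labelled Medium, had 41% to 55% removed and were taken at 0 h, 24 h, 14 d and 21 d (3 digits each). Both groups were cut, and the labels name no other treatment of them. The macrophages were bone marrow-derived cells of female C57BL/6 mice, 6 to 8 weeks old, as M0 (labelled baseline, with no time given), M1 (IFN-γ and LPS, 24 h) and M2 (IL-4, 24 h), 3 libraries each. By the study's methods the cells were grown with L929-conditioned medium, and M0, M1 and M2 cells were then all given a basal medium without it. No time in basal medium is given for M0, so between M0 and a treated group the cytokines and that time cannot be told apart, while M1 and M2 share the time.

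A dividing cell copies its DNA in S phase and separates the copies in mitosis. Entry into S phase is driven by cyclin E with its kinase and by E2F transcription factors, which turn on the genes for the MCM helicase (Mcm2 to Mcm7), its loaders (Cdc6, Cdt1), the clamp Pcna and the enzymes of nucleotide supply (Rrm1, Rrm2, Tyms, Tk1). Later, cyclins A and B with Cdk1, spindle motors (Kif11, Kif23), kinetochore proteins (Cenpe, Cenpf) and checkpoint kinases (Bub1, Bub1b) are made, and the proliferation antigen Mki67 marks cells in cycle. Many of these later genes are held off in resting cells by the DREAM complex, which is known to act through a short promoter element called the cell cycle genes homology region (CHR), often beside CCAAT boxes. In skin wounds, basal keratinocytes migrate and divide to close the wound, and in culture macrophages divide in response to M-CSF.

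The promoters show how the S phase and mitotic genes differ in sequence. RefSeq promoters on GRCm38.p6, from 250 bases before to 50 after each gene's start, were found for 35 of the 42 genes, 38 promoters in all. Both strands were searched. The CHR was taken as the letters TTTGAA, and the CCAAT box as its own name spells it. An E2F core was taken as any of 4 spellings, which are TTCCCGC, the closely related TTGGCGC, the variant TTCGCGC and lastly TTGCCGC, and on opposite strands these can overlap each other. TTTGAA was in 15 of 20 mitotic promoters (75%), in 2 of 18 S phase promoters (11.1%) and in 17.9% of all 32851 promoters of this length. An E2F core was in 11 of 18 S phase promoters (61.1%), in 3 of 20 mitotic promoters (15%) and in 9.57% of all. CCAAT was in 90% of mitotic, 66.7% of S phase and 37.4% of all promoters. These counts are of promoters and not of genes: the 18 S phase promoters belong to 16 genes and the 20 mitotic promoters to 19. Mcm7 and Uhrf1 each entered with 2 promoters that all hold an E2F core. Prc1 entered with 2 overlapping windows, so its 1 TTTGAA match is counted in each. These are matches of letters and not shown binding sites. The sequences below run 5′ to 3′ on the gene's strand, close to its start, with the matched letters in capitals. First come 5 mitotic genes, shown because each has the CHR letters and a CCAAT box within a short stretch.
Cdk1 (chr10:69352913-69353002, minus strand): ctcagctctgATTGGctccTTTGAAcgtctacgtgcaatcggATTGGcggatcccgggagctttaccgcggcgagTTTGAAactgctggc
Cdc20 (chr4:118437344-118437403, minus strand): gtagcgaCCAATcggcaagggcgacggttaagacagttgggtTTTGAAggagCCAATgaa
Kif11 (chr19:37376322-37376381, plus strand): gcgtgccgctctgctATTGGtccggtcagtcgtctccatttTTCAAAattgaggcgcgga
Top2a (chr11:99024190-99024279, minus strand): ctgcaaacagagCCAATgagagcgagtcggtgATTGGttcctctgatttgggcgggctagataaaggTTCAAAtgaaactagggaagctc
Mki67 (chr7:135716380-135716529, minus strand): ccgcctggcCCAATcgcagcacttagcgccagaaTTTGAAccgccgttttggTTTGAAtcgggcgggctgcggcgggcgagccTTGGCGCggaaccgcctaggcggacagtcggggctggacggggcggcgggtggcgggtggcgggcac
The next 3 are S phase genes, shown for their E2F cores, and none of the stretches holds TTTGAA.
Mcm5 (chr8:75109329-75109508, plus strand): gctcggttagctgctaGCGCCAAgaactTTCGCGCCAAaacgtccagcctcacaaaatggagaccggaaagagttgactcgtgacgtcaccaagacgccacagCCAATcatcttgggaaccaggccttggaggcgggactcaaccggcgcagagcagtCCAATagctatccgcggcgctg
Mcm6 (chr1:128359706-128359825, minus strand): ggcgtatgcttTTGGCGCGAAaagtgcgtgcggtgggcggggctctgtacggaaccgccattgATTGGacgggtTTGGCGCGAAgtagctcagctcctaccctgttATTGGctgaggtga
Rrm1 (chr7:102441595-102441694, plus strand): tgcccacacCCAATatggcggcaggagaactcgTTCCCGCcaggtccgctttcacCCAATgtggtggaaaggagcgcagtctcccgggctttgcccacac
The windows of Ccne1, E2f1, Tk1, Tyms, Birc5 and Nusap1 held none of the letters searched. For E2f1 the window (chr2:154569377-154569676) lies wholly inside the annotated gene (chr2:154559407-154569892, minus strand). The stretch before that annotated start was not searched. The window of Cdc6, both windows of Mcm7 and the second of Uhrf1, all counted with an E2F core, also lie wholly inside their annotated genes.

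**Figure D1:**
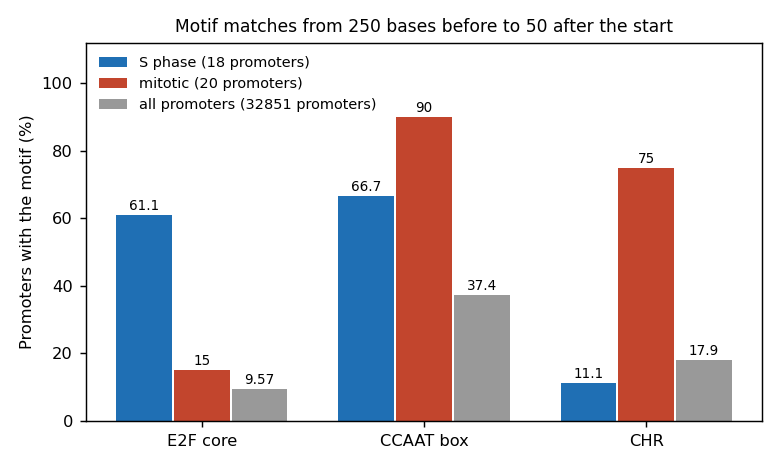
Share of promoters (y axis, percent) holding an E2F core, a CCAAT box or the CHR letters (x axis), for 18 S phase promoters (blue), 20 mitotic promoters (red) and all 32851 promoters (grey). The CHR bar stands at 75% for mitotic and 11.1% for S phase promoters, and the E2F bar at 15% and 61.1%.

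Expected counts summed to between 1468749 and 13011782 per digit and to between 15683424 and 27904773 per macrophage library. Levels are given as CPM (counts scaled to a common library size) after TMM scaling, which compare a gene between samples and not genes with each other. A gene was called changed where edgeR's quasi-likelihood test gave a Benjamini-Hochberg adjusted p under 0.05 over all genes tested and the mean normalized counts plus 1 differed by more than 2-fold, and fold changes (log2) are given with their standard error (SE). The share of all genes called in the same comparison is given as the background. Replicates are libraries labelled as separate digits, or macrophage libraries of which the labels do not say whether they came from separate cultures. In 5 pairs of digits of different groups the labels share animal mark, date and side, among them NR 0 h replicate 1 with 12 h replicate 3 and IM 14 d replicate 1 with NR 14 d replicate 3, and whether these are 1 animal is not given, so that p-values measure the spread between these libraries. An NR digit of 7 d (replicate 2) and an NR digit of 14 d (replicate 2) stood apart, with TMM factors of 0.812 and 0.651 (0.868 or more in all other digits) and mean rank correlations to their group of 0.699 and 0.659 (0.78 or more). At 7 d replicate 2 had 634.3 CPM of Mki67 and 3.62 CPM of Mcm5, and the 14 d digit had 8.03 CPM of Mki67, 0.187 CPM of Kif11 and 135.0 CPM of Mcm5. The list medians over 0 h at 7 d and 14 d and the count over all NR times are given with and without them. Means of per-digit medians include them. Skin cells were present in the tissue: summed basal keratinocyte markers were 9420 to 10700 CPM in NR digits at 0 h. Nos2, Il12b and Cd86, which mark M1 cells, summed to 42 to 45.7 CPM in M0 and 5810 to 6040 CPM in M1. In M2, Retnla, Chil3 and Arg1, known IL-4 targets, were called higher than in M0, although Arg1 was also higher in M1, and Mrc1, the fourth marker, was lower at 1431 to 1612 CPM against 2121 to 2387 CPM without passing the 2-fold limit (log2 -0.53 ± 0.06, adjusted p = 1.74e-05). In bulk samples, fewer cells in cycle and less RNA of these genes per cell cannot be told apart.

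In NR digits the S phase and mitotic genes lay together at first, then apart, then together again. Both lists were low at 3 h and 6 h. By 24 h the S phase genes were above their 0 h level while the mitotic genes were at their lowest, and by 3 d the mitotic genes were back. To show this per digit, each digit's median log2 difference from the NR 0 h mean was taken over each list. The mean of these medians over the 3 digits was -0.68 ± 0.21 (SD) at 3 h, -0.65 ± 0.49 at 6 h, -0.38 ± 0.14 at 12 h, 0.47 ± 0.25 at 24 h and 0.47 ± 0.15 at 3 d for the S phase list. For the mitotic list it was -0.63 ± 0.29, -0.95 ± 0.25, -0.83 ± 0.19, -1.09 ± 0.15 and 0.25 ± 0.50 at the same times. At 7, 14 and 21 d the S phase list stood at 0.22 ± 0.20 (n = 5), 0.04 ± 0.18 and -0.04 ± 0.12, and the mitotic list at 0.06 ± 0.39 (n = 5), -0.82 ± 1.05 and -0.34 ± 0.28. The low mitotic mean at 14 d rested on replicate 2, at -2.02, with the other digits at -0.38 and -0.06. At 12 h and 24 h every NR digit's mitotic median was below every digit's S phase median, and at the other times the lists overlapped. At 24 h the S phase medians were 0.18 to 0.61 and the mitotic medians -1.20 to -0.92.

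**Figure D2:**
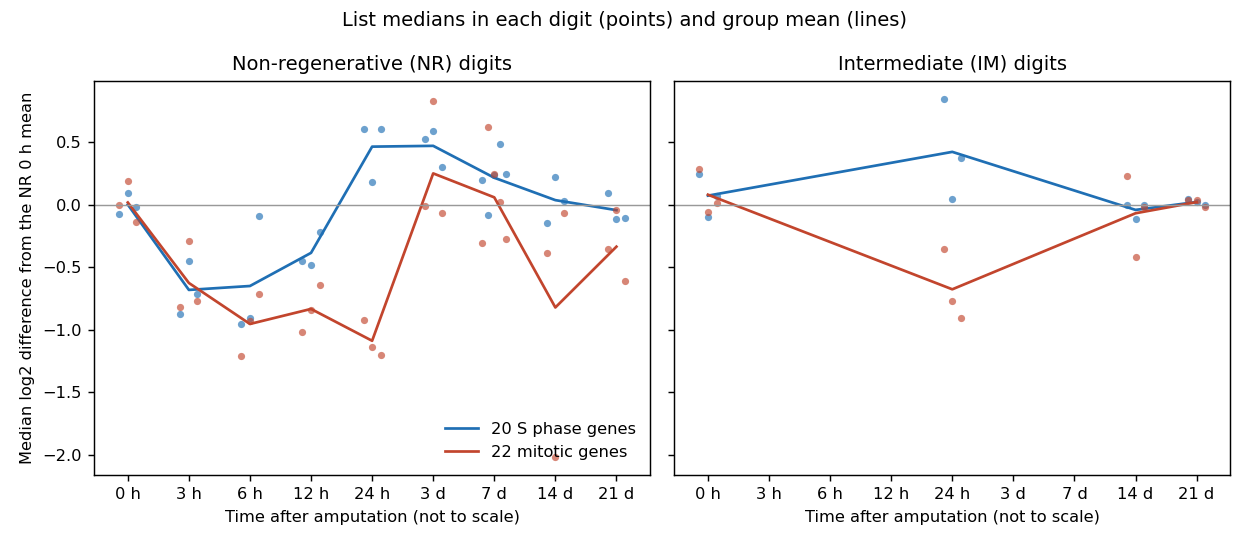
Median log2 difference from the NR 0 h mean (y axis) in each digit (points) over 20 S phase genes (blue) and 22 mitotic genes (red), by time after amputation (x axis, not to scale), with lines through group means, for NR digits (left) and IM digits (right). At 24 h the NR means are 0.47 and -1.09 and the IM means 0.42 and -0.68; the NR point near -2.02 at 14 d is replicate 2.

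The question of the early times was how soon division genes respond to amputation. At 3 h no member was called by edgeR, with a background of 0%. An unadjusted p under 0.05 was found for 11 of 42 members and 1362 of 12562 genes tested. DESeq2 called 3 members and limma on normalized TPM 0, and their backgrounds are not given here. Of the 42, 38 had a fold change below 0 and the median was -0.53, against -0.048 over all genes. The smallest adjusted p was that of Birc5 (survivin), one of the mitotic genes. Birc5 had 60.32, 88.31 and 85.26 CPM at 0 h and 27.81, 29.41 and 40.25 CPM at 3 h (log2 -1.26 ± 0.26, adjusted p = 0.235). Uhrf1, which carries DNA methylation through replication, had 40.09, 46.9 and 42.3 CPM at 0 h and 19.94, 13.57 and 23.53 CPM at 3 h (log2 -1.17 ± 0.29, adjusted p = 0.282). In both genes all 3 h digits were below all 0 h digits. Both were named for their small adjusted p, so this is no separate support for a fall.

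At 6 h 11 members fell, 9 mitotic and 2 S phase, and none rose; 1.62% of all genes were called lower. The mitotic genes were Mki67, Ccnb2, Bub1b, Plk1, Cenpe, Cenpf, Kif11, Kif23 and Prc1, and the S phase genes were Cdc45, a part of the active helicase, and Uhrf1. Plk1, a kinase of mitotic entry, went from 20.05, 25.06 and 21.86 CPM to 6.76, 9.03 and 10.24 CPM (log2 -1.37 ± 0.25, adjusted p = 0.0231). Bub1b, of the spindle checkpoint, was measured at 19.13, 41.61 and 34.43 CPM at 0 h and at 9.85, 12.68 and 15.09 CPM at 6 h (log2 -1.35 ± 0.32, adjusted p = 0.0487). Cenpf went from 58.11, 68.73 and 47.11 CPM to 16.61, 28.43 and 26.28 CPM (log2 -1.29 ± 0.26, adjusted p = 0.0291). The groups did not overlap in any of these. Pcna was not called, at 73.19, 75.49 and 76.73 CPM at 0 h and 69.92, 72.41 and 93.39 CPM at 6 h (log2 0.05 ± 0.16, adjusted p = 0.867). The 11 calls were close to the threshold: leaving out either 6 h replicate 1 or 2, or 0 h replicate 2 or 3, gave 0 calls, leaving out 6 h replicate 3 gave 5, and leaving out 0 h replicate 1 gave 7. The medians kept their sign in all of these, between -1.19 and -0.85 for the mitotic list. With the date on the labels (an earlier or a later period) as a term, with all libraries in 1 fit, or with NR digits of 67% or more alone, 0 members were called. Neutrophil markers summed to 77.7 to 124 CPM at 6 h and 161 to 437 CPM at 12 h, against 13.3 to 19.5 CPM at 0 h, and basal keratinocyte markers to 12300 to 12900 CPM and 13400 to 18700 CPM. Alas2 was at 2.90, 1.15 and 2.22 CPM at 6 h and 6.84, 3.15 and 11.33 CPM at 12 h, against 27.95 to 28.49 CPM at 0 h. The part of these in the results at 6 h and 12 h was not tested.

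At 12 h 10 members fell, 8 of them mitotic, with 4.64% of all genes called lower. Nusap1, which bundles spindle microtubules, went from 30.34, 35.34 and 20.55 CPM at 0 h to 8.71, 9.57 and 12.3 CPM (log2 -1.49 ± 0.28, adjusted p = 0.0107). Birc5 stood at 19.7, 36.96 and 35.35 CPM (log2 -1.34 ± 0.27, adjusted p = 0.0131). Top2a, the topoisomerase that untangles chromosomes, stood at 100.4, 92.65 and 113.3 CPM against 147.1, 266.2 and 230.0 CPM at 0 h (log2 -1.06 ± 0.23, adjusted p = 0.0181). Kif11 and Mki67 fell to 15.59 to 21.88 CPM and 97.27 to 135.9 CPM (log2 -1.31 ± 0.21 and -1.24 ± 0.19, adjusted p = 0.00605 and 0.00535). The S phase genes called lower were Tk1 and Cdc45. Rrm2, of the ribonucleotide reductase, was already above its 0 h digits at 12 h, with 36.09, 32.5 and 36.91 CPM against 27.4, 30.25 and 29.73 CPM, but was not called (log2 0.28 ± 0.17, adjusted p = 0.29). Without 0 h replicate 2 the count was 4, it was 6 without 12 h replicate 1 or 2 or without 0 h replicate 3, and it was 7 to 13 without the others. All 12 h digits and 1 of 3 digits at 0 h are of the earlier period, within which the medians were -0.05 (S phase) and -0.70 (mitotic), and with the period as a term 0 members were called, as with all libraries in 1 fit.

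At 24 h the lists split. Mcm4, Mcm5, Rrm2, Cdt1 and Ccne2 rose, 5 of 20 S phase genes, beside 5.57% of all genes called higher, and no S phase gene fell. No mitotic gene rose, and 11 of 22 fell (Mki67, Top2a, Bub1b, Plk1, Cenpe, Cenpf, Kif11, Kif23, Birc5, Nusap1 and Prc1), beside 5.14% of all genes called lower. The S phase median was 0.43, with 17 of 20 above 0, and the mitotic median -1.06, with 22 of 22 below 0. Over all genes the median was -0.036.

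Among the S phase genes, Mcm5, a subunit of the replicative helicase, went from 31.45, 33.19 and 28.42 CPM to 75.52, 53.06 and 87.86 CPM (log2 1.22 ± 0.22, adjusted p = 0.00859). Rrm2 went from 27.4, 30.25 and 29.73 CPM to 62.53, 54.25 and 81.57 CPM (log2 1.18 ± 0.20, adjusted p = 0.00679). Cdt1, which loads the helicase onto origins, went from 4.78, 5.48 and 4.92 CPM to 10.94, 11.14 and 15.09 CPM (log2 1.28 ± 0.29, adjusted p = 0.0214). In all 3 genes every 24 h digit was above every 0 h digit. The other cyclin E gene, Ccne1, had 12.75, 8.62 and 3.95 CPM against 3.49, 3.23 and 4.7 CPM, and its groups overlapped (log2 1.15 ± 0.46, adjusted p = 0.122). E2f1 was not called, with 11.54, 18.32 and 26.77 CPM against 9.01, 22.32 and 23.39 CPM (log2 0.03 ± 0.42, adjusted p = 0.967). Pcna was above its 0 h digits at 96.32, 83.36 and 97.03 CPM without being called (log2 0.29 ± 0.15, adjusted p = 0.194).

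Among the mitotic genes, Kif23, the motor of the central spindle, went from 44.14, 56.49 and 38.37 CPM to 13.47, 11.98 and 14.55 CPM (log2 -1.80 ± 0.22, adjusted p = 0.00205). Cenpf stood at 19, 14.61 and 20.84 CPM (log2 -1.68 ± 0.23, adjusted p = 0.00287) and Kif11 at 21.29, 13.17 and 10.06 CPM against 48.18, 52.58 and 40.88 CPM (log2 -1.67 ± 0.29, adjusted p = 0.00731). Mki67 stood at 134.0, 80.0 and 105.5 CPM against 238.5, 305.4 and 269.6 CPM (log2 -1.35 ± 0.22, adjusted p = 0.00654), and Top2a at 117.8, 87.91 and 93.25 CPM (log2 -1.11 ± 0.24, adjusted p = 0.0186). Every 24 h digit was below every 0 h digit in these. Cdk1, the mitotic kinase, was the mitotic gene nearest to 0, with 20.8, 12.58 and 21.92 CPM against 18.21, 24.67 and 21.75 CPM (log2 -0.23 ± 0.27, adjusted p = 0.591). Of the stretches printed above, those of Mki67, Top2a and Kif11 belong to genes that fell, and those of Cdk1 and Cdc20 to genes with the same letters that were not called.

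**Figure D3:**
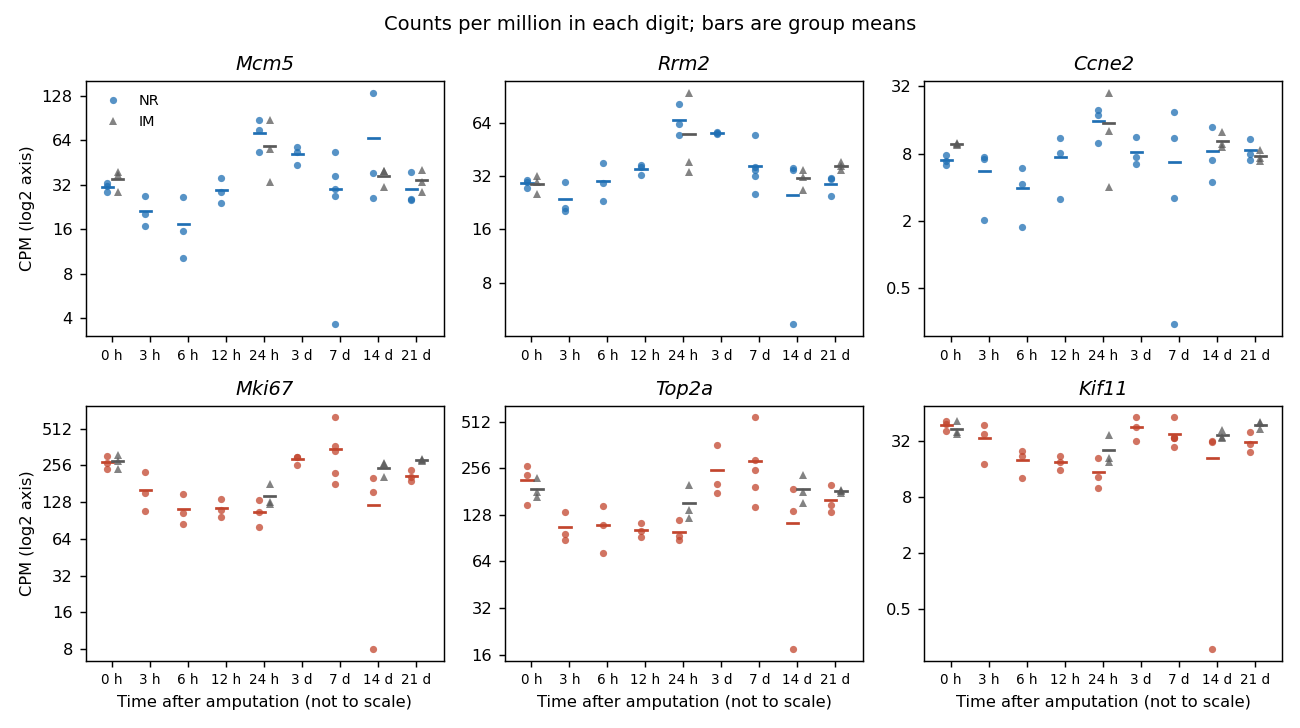
CPM on a log2 axis (y) in each NR digit (circles) and IM digit (triangles) by time after amputation (x axis, not to scale), for 3 S phase genes (top, blue) and 3 mitotic genes (bottom, red); bars are group means. At 24 h NR Mcm5 lies at 53.06 to 87.86 CPM, above its 0 h digits, and Mki67 at 80.0 to 134.0 CPM, below them.

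The split of the lists had these limits. Leaving out 1 digit gave 10 to 16 calls, with 2 S phase genes higher without 24 h replicate 1 or 3 or 0 h replicate 3, 3 without 0 h replicate 2, and 8 to 12 mitotic genes lower. With NR digits of 67% or more alone (1 digit at 0 h and 2 at 24 h) 0 were called, with all libraries in 1 fit 2 members, both lower, and 13 members in that fit once the 2 digits that stood apart were left out. Date periods could be compared within: the S phase median was 0.75 in the earlier period (2 digits against 1) and 0.22 in the later (1 against 2), and the mitotic median -0.97 and -1.21, and with the period as a term 2 members were called. Other cells moved with the split. Summed neutrophil markers went from 13.3 to 19.5 CPM at 0 h to 342 to 492 CPM at 24 h, basal keratinocyte markers from 9420 to 10700 CPM to 21100 to 24400 CPM and fibroblast markers from 3020 to 5100 CPM to 1070 to 2530 CPM. Alas2, of heme synthesis in red cell precursors, went from 27.95, 28.49 and 27.98 CPM to 2.04, 0.838 and 8.27 CPM. Their part in the result was not tested.

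The other genes of the pathway were taken from lists. E2f7 and E2f8, the atypical E2F repressors of S phase genes, were the members of the 13 E2F, pocket protein and DREAM genes that rose at 24 h, and E2f2 fell (log2 -1.54). E2f7 had 1.66, 4.7 and 3.94 CPM at 0 h, 17, 15.94 and 15.93 CPM at 6 h, 34.64, 26.87 and 12.5 CPM at 12 h and 26.22, 27.19 and 40.25 CPM at 24 h (log2 over 0 h 2.20 ± 0.38 at 6 h, adjusted p = 0.0202, and 3.14 ± 0.38 at 24 h, adjusted p = 0.00203). E2f8 had 11.77, 22.22 and 19.02 CPM at 0 h and 72.39, 60.84 and 84.99 CPM at 24 h (log2 2.03 ± 0.26, adjusted p = 0.00245). E2f7 was called at 6 h, when the S phase list had its median at -0.67, and at 24 h, when that median was 0.43. A link between E2f7 and the list was not tested. Among 6 D cyclins and kinases, Cdk6 rose at 24 h (log2 1.69 ± 0.23, adjusted p = 0.00296), and of the 6 CDK inhibitors tested Cdkn1b (p27) and Cdkn2c (p18) fell (log2 -1.17 ± 0.25 and -1.21 ± 0.21, adjusted p = 0.016 and 0.00732). Of 20 other replication genes only Orc1, of the origin recognition complex, was called, higher (log2 1.61 ± 0.42, adjusted p = 0.0341), and of 20 other mitotic genes 6 fell, 20 of 20 were below 0 and the median was -0.98.

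From 24 h to 3 d the mitotic genes came back. Of 22, 12 rose (Mki67, Top2a, Ccna2, Ccnb1, Ccnb2, Plk1, Cenpa, Cenpe, Cenpf, Kif11, Kif23 and Prc1), all 22 were above 0 with a median of 1.53, and 1.26% of all genes were called higher. No S phase gene was called and their median was -0.03. Cenpa, the histone of the centromere, went from 13.71, 19.64 and 13.12 CPM to 29.28, 82.19 and 43.49 CPM (log2 1.78 ± 0.37, adjusted p = 0.0364). Cenpe went from 16.35, 12.81 and 12.22 CPM to 40.2, 57.97 and 37.76 CPM (log2 1.75 ± 0.25, adjusted p = 0.0148) and Plk1 from 8.9, 8.74 and 10.24 CPM to 20.77, 49.85 and 19.72 CPM (log2 1.74 ± 0.38, adjusted p = 0.0446). In each of these 3 d replicate 2 was the highest digit, and the groups did not overlap.

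Mki67 stood at 259.8, 302.5 and 299.9 CPM at 3 d (log2 over 24 h 1.47 ± 0.23, adjusted p = 0.016), Top2a at 202.1, 363.6 and 178.0 CPM (log2 1.35 ± 0.28, adjusted p = 0.0364) and Ccnb1, the cyclin of mitotic entry, at 32.74, 57.73 and 43.83 CPM against 17.2, 11.38 and 20.12 CPM (log2 1.51 ± 0.30, adjusted p = 0.0322). Mcm5 was still at 53.78, 58.09 and 43.66 CPM (log2 -0.44 ± 0.24, adjusted p = 0.354). Over the same interval E2f7 fell to 6.66, 10.82 and 4.89 CPM (log2 -2.01 ± 0.35, adjusted p = 0.0213) and E2f8 to 31.95, 42.45 and 30.18 CPM (log2 -1.02 ± 0.22, adjusted p = 0.0442), and 9 of 20 other mitotic genes rose, led by Kif2c (log2 2.22 ± 0.33) and Ndc80 (log2 2.17 ± 0.33, adjusted p = 0.0159 and 0.016). The 12 calls became 0 without 24 h replicate 1 or 3, 5 without 24 h replicate 2 or 3 d replicate 3 and 8 without 3 d replicate 1, while the mitotic median stayed between 1.21 and 1.66. With the period as a term 1 was called, and the mitotic median was 1.0 within the earlier period (2 digits against 2) and 1.96 within the later (1 against 1). Fibroblast markers were higher at 3 d, 4250 to 12000 CPM against 1070 to 2530 CPM at 24 h. Neutrophil markers were lower, 190 to 316 CPM against 342 to 492 CPM. Macrophage markers summed to 117 to 415 CPM against 50.1 to 206 CPM, and basal keratinocyte markers to 14900 to 22800 CPM against 21100 to 24400 CPM, both overlapping. The part of these cells in the result was not tested.

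**Figure D4:**
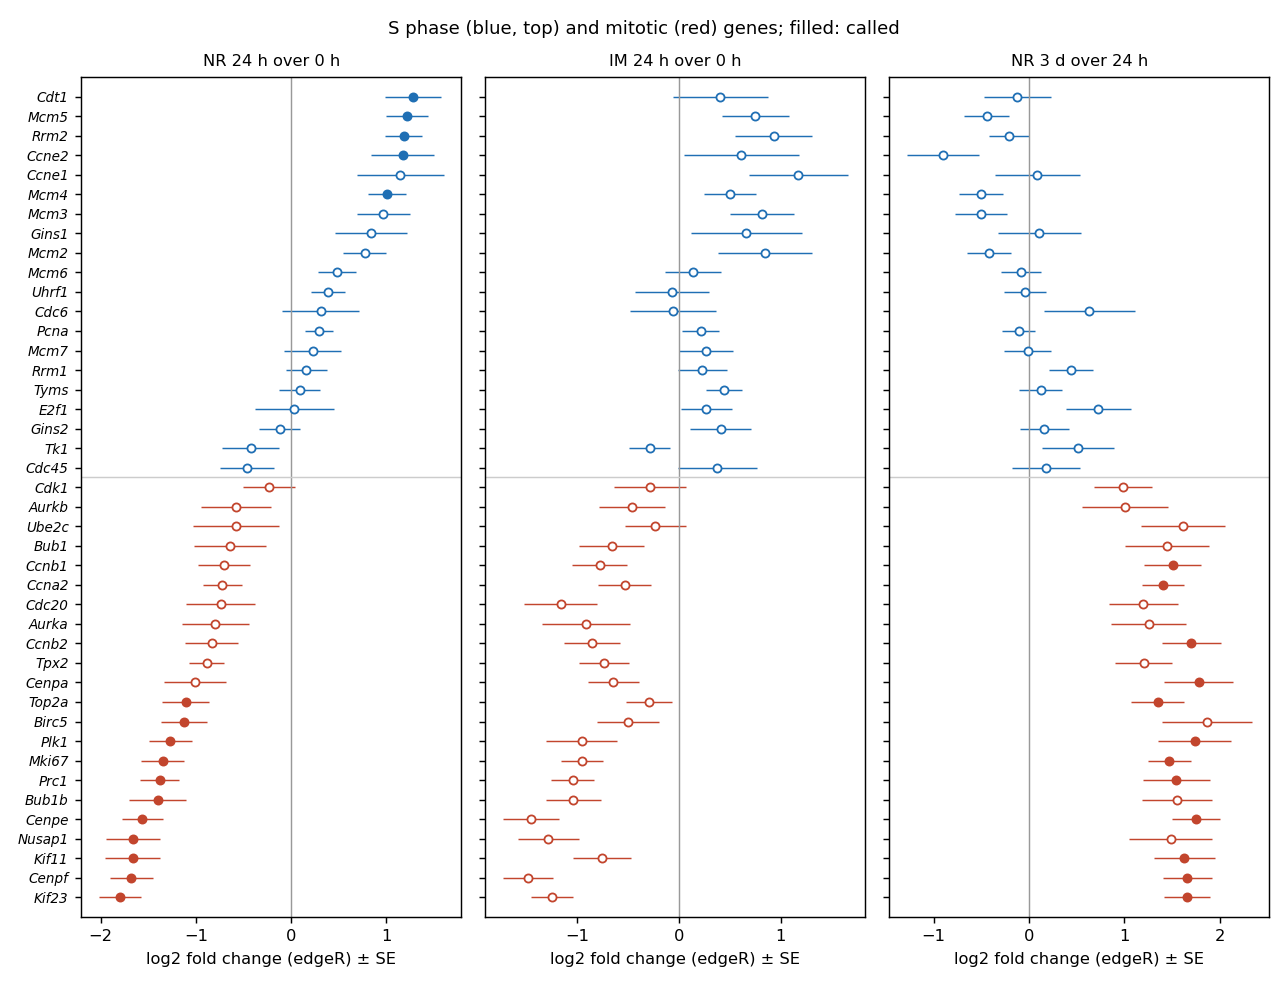
log2 fold change with its SE (x axis) of each S phase gene (blue, above the line) and mitotic gene (red, below it) for NR 24 h over 0 h, IM 24 h over 0 h and NR 3 d over 24 h; filled points were called. In the left panel 17 of 20 S phase genes lie above 0 and 22 of 22 mitotic genes below it, and in the right panel 22 of 22 mitotic genes lie above 0.

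Against 0 h, the later NR times gave no member called by edgeR, DESeq2 or limma. At 3 d the background was 0.723%, and 36 of 42 members were above 0. An unadjusted p under 0.05 was found for 10 of 42 members and 1477 of 13286 genes tested. Rrm2 came nearest, at 55.91, 56.44 and 55.13 CPM against 27.4, 30.25 and 29.73 CPM (log2 0.94 ± 0.17, adjusted p = 0.0585), followed by Mcm5 (log2 0.74 ± 0.19, adjusted p = 0.166). At 7 d the background was 0.0537%, and 0 members had an unadjusted p under 0.05, against 566 of 13046 genes tested. The S phase and mitotic medians were 0.33 and 0.15, or 0.31 and -0.01 without replicate 2. E2f1 was at 27.61, 98.61, 37.61, 25.45 and 29.53 CPM at 7 d, all above the 0 h digits, and not called (log2 1.27 ± 0.57, adjusted p = 0.999). At 14 d the background was 0%, and 1 member had an unadjusted p under 0.05, against 1044 of 13567 genes tested. The medians were 0.12 and -0.48, or -0.03 and -0.20 without replicate 2. At 21 d the background was 0.452%, and 3 members had an unadjusted p under 0.05, against 987 of 13712 genes tested. The mitotic median was -0.37 with 21 of 22 below 0. Kif11 had 29.88, 40.35 and 24.55 CPM there, below its 0 h digits (log2 -0.59 ± 0.22, adjusted p = 0.615). The mixture of cells was not that of 0 h. Fibroblast markers summed to 6940 to 44300 CPM at 7 d, 34200 to 56900 CPM at 14 d and 16400 to 32200 CPM at 21 d. At 0 h they were at 3020 to 5100 CPM. Basal keratinocyte and endothelial markers overlapped their 0 h ranges at these times. The part of these cells in the results was not tested.

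Over all 9 NR times tested at once, 5 members changed, Uhrf1, E2f1, Ccnb2, Cenpa and Birc5, and 7.62% of all genes. Uhrf1 was highest at 24 h (65.18, 47.43 and 56.42 CPM) and lowest at 3 h (F = 8.15, adjusted p = 0.000967), and Ccnb2, a B cyclin, was highest at 3 d (28.49, 21.64 and 18.38 CPM) and lowest at 6 h (5.02, 6.15 and 6.23 CPM, adjusted p = 0.0419). This count moved with the digits that stood apart: it was 19 without 14 d replicate 2, 11 without 7 d replicate 2 and 26 without both, and 3 to 10 without any 1 other digit. The share of all genes called in these refits is not given here, so the larger counts cannot be set against a background.

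In IM digits the lists split at 24 h in the same sense but no member was called. The S phase median was 0.41, with 17 of 20 above 0, and the mitotic median -0.82, with 22 of 22 below 0. The edgeR background was 0.0152%. An unadjusted p under 0.05 was found for 18 of 42 members and 2034 of 13172 genes tested. DESeq2 called 6 members and limma 0, and their backgrounds are not given here. Kif23 had 50.35, 40.65 and 40.86 CPM at 0 h and 18.03, 21.95 and 15.78 CPM at 24 h (log2 -1.25 ± 0.21, adjusted p = 0.0971) and Cenpf had 70.75, 56.88 and 77.23 CPM at 0 h and 21.81, 33.19 and 18.54 CPM at 24 h (log2 -1.48 ± 0.25, adjusted p = 0.103). Mki67 had 312.9, 241.3 and 279.7 CPM at 0 h and 180.3, 127.3 and 123.7 CPM at 24 h (log2 -0.95 ± 0.21, adjusted p = 0.129). The 24 h digits lay below all 0 h digits in these genes. The S phase side rested mostly on replicate 1: Mcm5 had 87.77, 33.55 and 55.72 CPM against 38.91, 37.4 and 28.49 CPM, Rrm2 94.3, 33.55 and 38.33 CPM against 32, 25.45 and 29.43 CPM, and E2f7 40.36, 5.80 and 5.26 CPM against 4.77, 3.90 and 4.87 CPM. Without that digit the S phase median was 0.08 and the mitotic median -0.97. It was also the only IM 24 h digit of the earlier date period, within which the medians were 0.95 and -0.39, against -0.09 and -1.11 in the later. Neutrophil markers summed to 16.2 to 21 CPM at IM 0 h and 51.3 to 430 CPM at 24 h, and basal keratinocyte markers to 8790 to 11300 CPM and 12900 to 27000 CPM. Alas2 was at 26.44, 12.6 and 47.61 CPM and then at 3.61, 0.544 and 0.535 CPM, and the part of these cells in the result was not tested.

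At 14 d and 21 d IM digits had 0 members called by edgeR, DESeq2 and limma, with backgrounds of 1.68% and 1.39%. An unadjusted p under 0.05 was found for 4 and 1 of 42 members, against 1790 of 13334 and 2212 of 13360 genes tested. Ccne1 was at 7.47, 7.77 and 9.56 CPM at 14 d against 4.69, 4.16 and 3.75 CPM at 0 h (log2 0.97 ± 0.33, adjusted p = 0.229), and Tk1 at 18.52, 23.84 and 21.56 CPM at 21 d against 35.18, 26.62 and 32.99 CPM (log2 -0.55 ± 0.19, adjusted p = 0.187). Neither pair of groups overlapped, but both genes were named for their small adjusted p, so this is no separate support. Over the 4 IM times at once, 5 mitotic genes changed, Mki67, Cenpf, Kif23, Nusap1 and Prc1 (6.21% of all genes), with the lowest mean of each at 24 h and adjusted p between 0.0103 and 0.0316. The count was 1 without 24 h replicate 3 and 8 without 24 h replicate 1 or 14 d replicate 1. Fibroblast markers summed to 25700 to 55500 CPM at 14 d and 19400 to 44800 CPM at 21 d, against 2820 to 8490 CPM at IM 0 h. Basal keratinocyte markers overlapped their IM 0 h range at both times. The part of these cells in the results was not tested.

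No member was called between IM and NR digits by edgeR, DESeq2 or limma at 0 h, 24 h, 14 d or 21 d. The backgrounds were 0%, 0%, 0% and 0.648%. An unadjusted p under 0.05 was found for 1, 2, 0 and 4 of 42 members. Over all genes tested it was found for 491 of 13500, 1472 of 13024, 270 of 13421 and 1927 of 13736, so the members were not above that share. At 24 h the mitotic median was 0.38 higher in IM, with 21 of 22 above 0, and the S phase median -0.01. Top2a had 199.4, 122.6 and 137.5 CPM in IM against 117.8, 87.91 and 93.25 CPM in NR at 24 h (log2 0.63 ± 0.23, adjusted p = 0.392). At 21 d Cdk1 had 26.16, 34.62 and 32.23 CPM in IM against 17.89, 22.48 and 17.31 CPM in NR (log2 0.68 ± 0.19, adjusted p = 0.17), and Mki67 282.2, 280.3 and 287.8 CPM against 204.7, 232.6 and 190.7 CPM (log2 0.43 ± 0.14, adjusted p = 0.216). The groups were apart in these 3, which were named for their small adjusted p, so this is no separate support for a difference. All IM 21 d digits are of the earlier date period and all NR 21 d digits of the later, so group and date cannot be told apart there. The test of the difference itself took the IM change from 0 h minus the NR change. It called 0 members at 24 h, 14 d and 21 d by edgeR and DESeq2. Its edgeR backgrounds were 0%, 0% and 0%, and 0 members had an unadjusted p under 0.05, against 227, 1050 and 120 of 14996 genes. At 24 h its median was -0.12 for S phase and 0.25 for mitotic genes, for Mki67 0.39 (adjusted p = 1) and for Mcm5 -0.47 (adjusted p = 1).

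In macrophages the lists were far apart. M1 cells had 21 of 22 mitotic genes and 11 of 20 S phase genes lower than M0, with 26% of all genes called lower, and 4 members higher (Ccne1, Pcna, Cdt1 and Tpx2), with 20.1% of all genes called higher. The mitotic median was -4.22 and the S phase median -1.38, against -0.088 over all genes. Summed mitotic genes went from 753.1 to 900.2 CPM in M0 to 103.5 to 113.2 CPM in M1.

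Of the 6 members with the largest falls 5 were mitotic genes and 1 was Rrm2, and all were near the limit of counting. Ccna2, cyclin A, had 35.79, 32.55 and 30.4 CPM in M0 and 5, 0 and 2 reads in the 3 M1 libraries, a ratio of 245 (95% counting interval 119 to 610). Cenpf had 4, 2 and 4 reads in M1 and a ratio of 186 (101 to 389). Ube2c, the E2 enzyme of the anaphase-promoting complex, had 3, 2 and 1 reads and a ratio of 174 (79.9 to 475), Ccnb1 had 2, 4 and 1 reads and a ratio of 136 (65.8 to 338), Cdc20, which activates that complex, had 2, 0 and 6 reads and a ratio of 88.6 (44.8 to 206), and Rrm2 had 4, 5 and 6 reads and a ratio of 70.8 (42.8 to 127). These intervals are exact binomial and cover counting error only. All 6 were called lower, with adjusted p between 7.7e-12 and 2.73e-10.

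Better counted genes fell as well. Mki67 went from 218.1, 181.1 and 169.5 CPM to 6.18, 7.86 and 6.15 CPM (log2 -4.72 ± 0.12, adjusted p = 1.97e-12), Top2a from 103.3, 94.94 and 90.4 CPM to 1.86, 1.99 and 2.67 CPM (log2 -5.32 ± 0.10, adjusted p = 2.25e-13) and Cdk1 from 22.55, 21.72 and 22.28 CPM to 3.62, 2.48 and 3.34 CPM (log2 -2.66 ± 0.11, adjusted p = 1.53e-10). Mcm5 went from 21.53, 24.29 and 20.87 CPM to 3.68, 3.64 and 3.72 CPM (log2 -2.47 ± 0.11, adjusted p = 3.4e-10). The whole helicase, Mcm2 to Mcm7, was lower, from log2 -4.24 for Mcm2 to -1.52 for Mcm4.

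Some genes went the other way in M1. Ccne1, which starts S phase, went from 2.91, 3.23 and 3.01 CPM to 37.62, 35.18 and 36 CPM (log2 3.70 ± 0.08, adjusted p = 7.93e-13), while its relative Ccne2 had 6.71, 7.03 and 6.29 CPM in M0 and 4.48, 5.21 and 3.96 CPM in M1 and was not called. Pcna went from 97.78, 100.8 and 102.1 CPM to 263.6, 237.1 and 250.6 CPM (log2 1.45 ± 0.05, adjusted p = 2.22e-11) and Cdt1 from 13.89, 15.49 and 13.43 CPM to 28.35, 25.58 and 25.37 CPM (log2 1.02 ± 0.08, adjusted p = 1.39e-07). Tpx2, which activates Aurora A on the spindle, was the mitotic gene that rose, from 34.46, 33.98 and 29.65 CPM to 69.65, 73.17 and 61.7 CPM (log2 1.18 ± 0.08, adjusted p = 1.95e-08), while Aurka itself fell (log2 -1.66 ± 0.16, adjusted p = 7.59e-07). Tpx2 overlaps the microRNA gene Mir5622 on the same strand. Tyms (log2 -0.10 ± 0.12, adjusted p = 0.424) and E2f1 (log2 0.02 ± 0.06, adjusted p = 0.818) were near 0. Per length, in normalized TPM, Pcna was the highest member in all 3 states, at 139.5 ± 3.16 (SD, n = 3) for M0, 376.9 ± 15.1 for M1 and 460.2 ± 19.7 for M2.

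The regulators around these genes moved too. In M1, Cdkn1a (p21), which blocks the cyclin kinases, went from 126.3, 132.9 and 132.0 CPM to 1016, 1012 and 982.9 CPM (log2 3.07 ± 0.05, adjusted p = 9.28e-14), and Cdkn2d rose while Cdkn2a, Cdkn2c and Cdkn1c fell. Foxm1, an activator of mitotic genes, went from 20.01, 19.72 and 18.12 CPM to 1.28, 1.32 and 1.19 CPM (log2 -3.81 ± 0.12, adjusted p = 1.77e-11). The pocket protein Rbl1 (p107) rose (log2 2.83 ± 0.05, adjusted p = 2.52e-13), E2f7 fell (log2 -5.20 ± 0.42, adjusted p = 1.44e-07) and E2f8 rose (log2 1.02 ± 0.09, adjusted p = 3.02e-07). Cyclin D2 (Ccnd2) rose (log2 2.16 ± 0.08, adjusted p = 7.12e-11) and Cdk4 fell (log2 -1.44 ± 0.06, adjusted p = 1.11e-10). Of 20 other mitotic genes 19 fell, and of 20 other replication genes 11 fell and 0 rose. Markers of marrow precursors, cells that divide in such cultures, were low: the 5 genes summed to 6.12 to 6.5 CPM in M0 and 0.331 to 0.639 CPM in M1, with Elane and Ctsg at 0 in M1, and their part in the result was not tested. Macrophage markers summed to 13800 to 15800 CPM in M0, 6200 to 6900 CPM in M1 and 6860 to 7220 CPM in M2, and fibroblast markers to 1630 to 2430 CPM, 885 to 1090 CPM and 2980 to 3290 CPM. The part of these in the results of M1 and M2 was not tested.

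**Figure D5:**
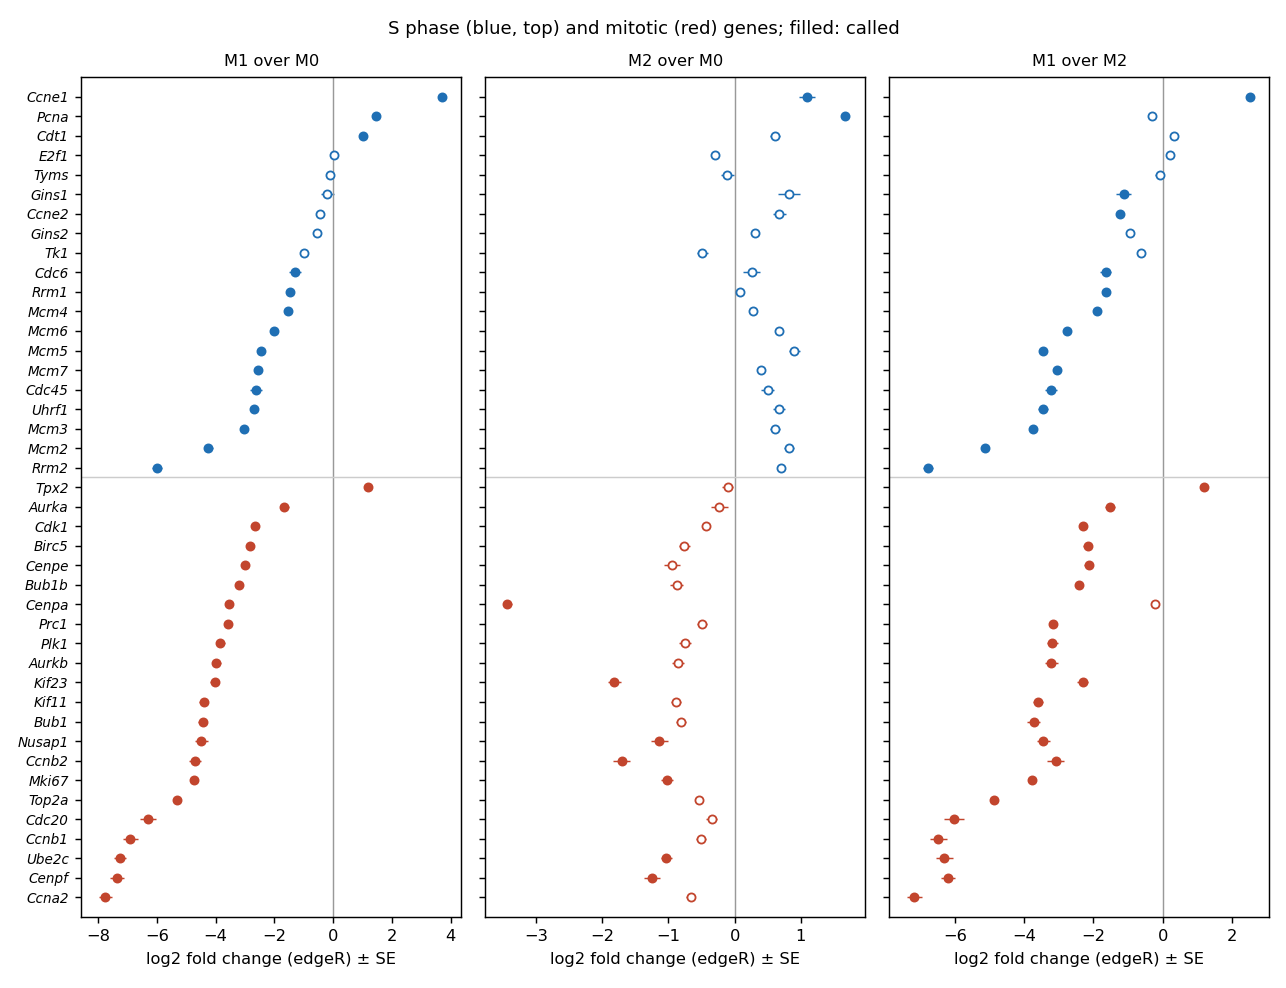
log2 fold change with its SE (x axis) of each S phase gene (blue, above the line) and mitotic gene (red, below it) for M1 over M0, M2 over M0 and M1 over M2; filled points were called. In the left panel Ccne1 stands at 3.70 and Ccna2 at -7.75, and in the middle panel Cenpa stands at -3.44, away from the other mitotic genes.

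In M2 cells most S phase genes lay above M0 and the mitotic genes below. Of the S phase genes, 17 of 20 were above 0 with a median of 0.61, and the median over all genes is not given here. Only 2 of the 20 were called higher (Pcna and Ccne1), no larger a share than the 11% of all genes. All 22 mitotic genes were below 0 with a median of -0.83, and 7 were called lower (Cenpa, Kif23, Ccnb2, Cenpf, Nusap1, Ube2c and Mki67; 11.3% of all genes). Most of the remaining differences passed the adjusted p but not the 2-fold limit, so that 37 of 42 were called without it. The background without the limit is not given here, but 9945 of all 12976 genes tested had an unadjusted p under 0.05. Pcna went to 336.2, 316.3 and 310.5 CPM (log2 1.67 ± 0.05, adjusted p = 3.37e-10) and Ccne1 to 7.02, 5.89 and 6.74 CPM (log2 1.09 ± 0.12, adjusted p = 9.88e-06). Cenpa stood out among the mitotic genes, from 103.6, 92.48 and 98.59 CPM to 8.43, 9.70 and 9.36 CPM (log2 -3.44 ± 0.07, adjusted p = 3.51e-11). Kif23 went from 32.94, 27.52 and 25.78 CPM to 8.01, 8.40 and 8.31 CPM (log2 -1.82 ± 0.10, adjusted p = 2.63e-08) and Ccnb2 from 17.69, 17.76 and 14.06 CPM to 4.46, 5.85 and 5.01 CPM (log2 -1.71 ± 0.12, adjusted p = 3.21e-07). Mki67 was at 98.64, 98.09 and 85.03 CPM (log2 -1.03 ± 0.09, adjusted p = 1.53e-06). Mcm5, at 41.67, 45.5 and 38.59 CPM, was above all M0 libraries without being called (log2 0.90 ± 0.08, adjusted p = 1.35e-06).

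In M2 the D cyclins Ccnd1 and Ccnd2 rose (log2 1.46 ± 0.09 and 1.15 ± 0.09, adjusted p = 5.49e-08 and 6.22e-07), as did Cdkn1a, at 367.7, 328.2 and 345.1 CPM (log2 1.40 ± 0.05, adjusted p = 2.09e-09). Cdkn1b (log2 -1.93 ± 0.06, adjusted p = 6.38e-10) and the pocket proteins Rb1 and Rbl2 (log2 -1.35 ± 0.07 and -1.36 ± 0.07, adjusted p = 2.51e-08 and 2.35e-08) fell. Of 20 other replication genes Rfc3, of the clamp loader, rose, and of 20 other mitotic genes Cdca3 fell. Both shares were below those of all genes called higher (11%) and lower (11.3%). M1 and M2 were compared with the same M0 libraries. The direct comparison, at the same time and in the same medium, had 33 members lower in M1 than in M2 and 2 higher (Ccne1 and Tpx2), with 27.9% and 20.1% of all genes called lower and higher. Mki67 was at 6.15 to 7.86 CPM in M1 and 85.03 to 98.64 CPM in M2 (log2 -3.79 ± 0.09, adjusted p = 7.65e-14), Rrm2 had 4, 5 and 6 reads in M1 against 33.73, 33.69 and 33.09 CPM in M2 (ratio of M2 to M1 116, 95% counting interval 70.1 to 207), and Ccne1 was 35.18 to 37.62 against 5.89 to 7.02 CPM (log2 2.51 ± 0.08, adjusted p = 5.33e-13). Cenpa was the mitotic gene not called between them, at 7.94, 5.79 and 8.58 CPM in M1, and both were far below M0.

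Reads can be shared between overlapping genes, and the counting is not stated to use strand. On the GRCm38 annotation (GENCODE vM21) 24 of the 42 members overlap no other gene, 15 overlap a gene on the other strand and 7 a gene on their own strand. Ccna2 (chr3:36564865-36572150, minus strand) overlaps the protein gene Exosc9 on the other strand. Mcm5 (chr8:75109569-75128439, plus strand), Rrm2 (chr12:24708241-24714146, plus strand), Kif23 (chr9:61915905-61946774, minus strand), Ccne1 (chr7:38097984-38107534, minus strand), Pcna (chr2:132249162-132253314, minus strand) and Cenpa (chr5:30666777-30674830, plus strand) overlap no annotated gene.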

How the data were processed

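RNA was measured in 41 digit libraries and 9 macrophage libraries by single-end sequencing of poly(A) RNA. The authors aligned the reads with Bowtie to Ensembl mouse transcripts and estimated expected counts per gene with RSEM 1.2.3, which divides reads shared by several genes, and the labels name CASAVA and mm10. The deposited expected counts are not normalized. The authors also deposited normalized TPM (a signal scaled by the median ratio between libraries), used here for levels per length. No column lacked a sample, and 26 gene names had been turned into dates.

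Expected counts were rounded to whole numbers. Each comparison was fitted on its 2 groups with edgeR 4.0.16 (filterByExpr, TMM, quasi-likelihood test, R 4.3.3), and each time course on its own digits. Calls needed an adjusted p (Benjamini-Hochberg) under 0.05 together with over 2-fold in mean normalized count plus 1. The study's own test, EBSeq, was not run here. DESeq2 1.42.0 and limma 3.58.1 (log2 of normalized TPM plus 1) were alternatives. Depth limits single counts: the intervals on count ratios are 95% exact intervals. Named genes were, per comparison, the 3 called members that rose most and the 3 that fell most, the called among Mki67, Top2a, Cdk1, Ccnb1, Mcm5, Pcna, Rrm2, Ccne1 and E2f1, and where none was called the 2 with the smallest adjusted p; others were named after their values were seen. Genes named for their change or small adjusted p tend to have groups that do not overlap. A lack of overlap in them is therefore no separate support. Members and gene lists were chosen with earlier results of these data known. The summed red cell marker list is not reported here. Same-numbered macrophage libraries did not deviate together more than others, and their numbers were not used as pairs in the main test.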

Additional observations from a re-analysis of the deposited data

Results flagged for a closer look

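E2f1, the E2F factor among the S phase genes, had 98.61 CPM in replicate 2 of the NR digits at 7 d, far from the other 4 digits (25.45 to 37.61 CPM). The gap to the nearest digit was 0.834 of the group's range, above the limit of 0.71 for 5 samples. It was 1 of 11 values examined this way at 7 d, and chance sets apart about 1 in 20 groups. The digit is 1 of the 2 that stood apart, with a TMM factor of 0.812, and the part of this in the value was not tested.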

How the results depend on the processing

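Under the other settings, macrophage counts of calls stayed near 36, 9 and 35 (M1 over M0, M2 over M0, M1 over M2), except that M2 over M0 had 37 without the fold limit and 4 with limma. In digits the counts moved more, and the cause was not tested. The share of all genes called under these other settings is not given here, for digits or for macrophages. At 3 h, 3 members were called by DESeq2 and 4 with all libraries in 1 fit and the 2 digits that stood apart left out. At 6 h the count was 0 with all libraries in 1 fit, with the date period as a term and with NR digits of 67% or more, and 5 with limma. At 12 h it was 0 with all libraries in 1 fit and with the period. At 24 h it was 2, 2 and 0 under the first 3 of these. At 3 d over 24 h it was 20 by DESeq2, 0 with all libraries in 1 fit, 1 with the period and 0 with NR digits of 67% or more. In IM digits at 24 h it was 6 by DESeq2, 2 with no filter and 3 with the 2 digits left out. The NR course gave 25 by DESeq2, 16 with RLE size factors and 26 without the 2 digits, and the IM course 9 by DESeq2. Leaving out 1 library gave 0 to 7 at 6 h, 4 to 13 at 12 h, 10 to 16 at 24 h, 0 to 12 at 3 d over 24 h, 0 to 1 in IM at 24 h, 35 to 37 in M1 over M0, 6 to 10 in M2 over M0, 34 to 35 in M1 over M2, 3 to 19 in the NR course and 1 to 8 in the IM course. Tk1 in IM over NR at 14 d turned from log2 -1.27 to 0.16 without the 2 digits and 0.17 without NR 14 d replicate 2, and leaving out 1 digit at a time gave -1.68 to 0.17. With depths as low as 1468749 counts in a digit, single members of few counts carry wide errors.

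Macrophage replicate numbers were the only shared numbers tested as a replicate block. Correlations of deviations were -0.118 to 0.138 for the same number (n = 9) and -0.129 to 0.147 for different numbers (n = 18). These ranges overlap and show no pairing. With so few libraries they cannot show whether same-numbered libraries share a mouse or a culture, which the labels do not say. The replicate block gave 36, 9 and 35 calls.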
